A study of Homo sapiens with 12 samples.

Results

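The response that 2 altered culture media had in common was read from 12 RNA-Seq libraries of 201B7, an established human induced pluripotent stem cell (iPSC) line. The 6 altered-medium libraries were the 3 of Cond 2, labelled low nutrient, in which StemFit medium had been heated at 56 °C for 30 min before use, and the 3 of Cond 3, labelled differentiation, in which cells received a DMEM-based medium with 10% FBS. The 6 standard-medium libraries were the 3 of Cond 1, the control in untreated StemFit, and the 3 of Cond 4, labelled as physical stimulation, in which cells in the same untreated medium were pipetted 20 times at passage. All 12 of the 12 libraries in the series entered the comparison, the cells of every condition were harvested on Day 5, and every library came from the same line. The 2 altered media differed in composition and, by the culture scheme of the study, in how long the cells were exposed to them, so the altered pool holds 2 conditions of 3 libraries and not 6 replicates of one condition. The study describes its replicates as technical ones, and the p-values below measure the spread between these libraries only. The labels name skin as the tissue of origin, but the libraries carried the markers of pluripotent stem cells described below.

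Primed human iPSCs are held in an undifferentiated state by FGF signalling through the kinase ERK and by NODAL/activin signalling through SMAD2/3, both of which act on a network built around the transcription factors OCT4, SOX2 and NANOG. When these signals weaken, such cells tend towards ectoderm, and the anterior neural plate, marked by factors such as FEZF1, LHX5, HESX1 and OTX2, is a well known outcome, whereas BMP signalling directs ectoderm towards epidermal and amnion-like fates. StemFit supplies growth factors that sustain the undifferentiated state, and serum carries BMP-like and other differentiation signals.

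Of 17747 genes tested with edgeR's quasi-likelihood test on counts, 897 (5.05% of the genes tested) passed the pooled test, which asked for an adjusted p-value under 0.05 and more than a 2-fold difference between the mean of the altered and the mean of the standard conditions, 465 of them higher (2.62%) and 432 lower (2.43%). A gene was called common when it met both conditions and also differed from the standard pool, in the same direction and with an adjusted p-value under 0.05, in Cond 2 and in Cond 3 separately. This left 459 genes (2.59%), with 251 higher (1.41%) and 208 lower (1.17%). The pooled test by itself therefore did not show a shared response. Among the 465 higher genes, 49 were higher by adjusted p-value in Cond 2 and not in Cond 3, 160 in Cond 3 and not in Cond 2, and 5 in neither medium, while among the 432 lower genes the corresponding counts were 61, 145 and 18. Separately, 40 genes (0.225%) moved more than 2-fold in opposite directions in the 2 media, 8 of them higher in Cond 2 (0.0451%) and 32 higher in Cond 3 (0.180%).

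**Figure D1:**
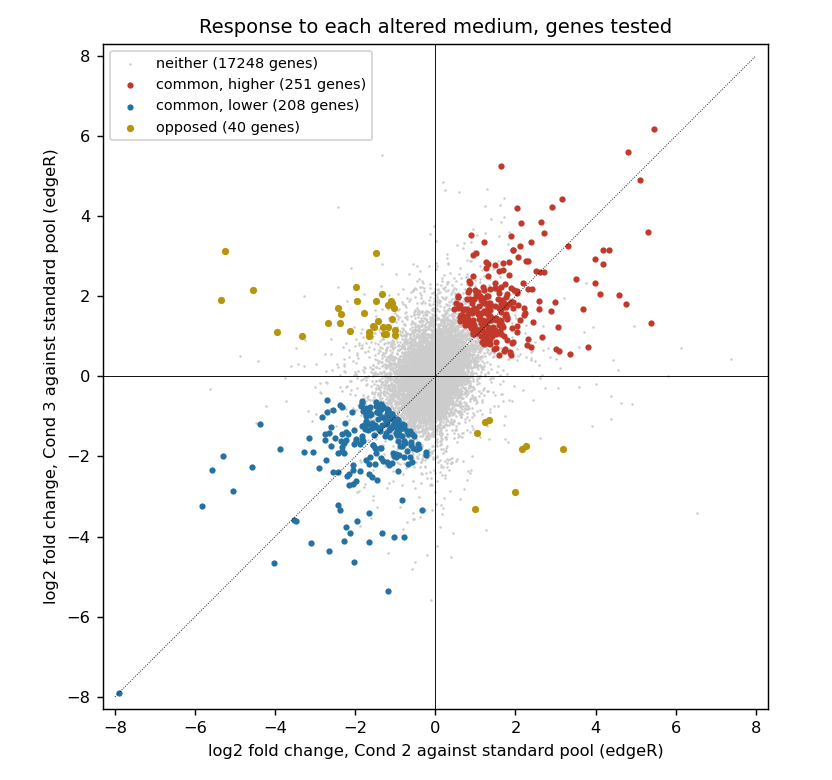
Log2 fold change of each of the 17747 tested genes in Cond 2 (horizontal axis) and Cond 3 (vertical axis) against the standard pool, with 1 point per gene and values beyond 8 drawn at the edge. The 251 common higher genes (red) lie in the upper right, the 208 common lower genes (blue) in the lower left and the 40 opposed genes (ochre) in the upper left and lower right. The dotted line marks equal change in both media.

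The separation of the libraries was also described without a model on TPM, which is the deposited level of a gene after correction for its length and for the depth of the library. The 6 altered libraries lay entirely above or below the 6 standard libraries for 1946 genes (11.0% of those tested), above for 1358 (7.65%) and below for 588 (3.31%). This held for 187 of the 251 common higher genes and 166 of the 208 common lower genes. The common genes had been chosen for a difference between these same libraries, so their counts are a description and no independent check. Taken over the common higher genes, the median log2 fold change was 1.38 in Cond 2 and 1.59 in Cond 3. Over the common lower genes the medians were -1.47 and -1.49. Such medians are taken for each medium by itself and do not compare the media within a gene. The size was nevertheless often unequal for a single gene. Cond 3 differed from Cond 2 with an adjusted p-value under 0.05 for 38.2% of all genes tested, and among the common higher genes 73 were further from the standard pool in Cond 3, 47 were further in Cond 2, and for 131 no difference was called. Among the common lower genes these counts were 52, 42 and 114. A fold change above 2 in each medium separately was reached by 165 of the common higher and 123 of the common lower genes.

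Joining Cond 1 and Cond 4 into one standard pool set aside few differences, since only 3 genes (0.0169%) were called between them. The 3 called genes were TXNDC5, PCBP1 and EEF1A1P6, and none of them was a common gene. Total counts ranged from 16441148 to 19935360 in the standard libraries and from 18142616 to 21871503 in the altered libraries. In the standard pool the median TPM was 6.69 for the common lower genes and 1.40 for the common higher genes, against 11.4 over all genes tested. Long non-coding RNAs made up 67 of the 208 common lower genes (32.2%) and 14 of the 251 common higher genes (5.58%), against 12.6% of all genes tested. In bulk RNA a lower value can come from fewer cells of a type or from less RNA per cell, and these cannot be told apart here.

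The naming rule for leading genes took only genes whose altered and standard libraries did not overlap, and left out antisense, clone and pseudogene names. The gene with the largest common increase under this rule was FEZF1, a zinc finger repressor of the early forebrain (ENSG00000128610, chromosome 7 of GRCh38, 122301303 to 122310691, reverse strand). Its TPM was between 4.57 and 8.15 in the 6 standard libraries, 101, 136 and 148 in Cond 2, and 54.3, 57.3 and 70.0 in Cond 3. No altered library came near the standard range, and the Cond 2 libraries were the highest. The pooled log2 fold change was 3.68 (standard error 0.119, adjusted p = 3.57e-16 from edgeR), with 4.19 in Cond 2 and 3.16 in Cond 3. Its antisense partner FEZF1-AS1, named here after its values were seen, had a pooled log2 fold change of 3.74. The library kit keeps strand, but the sources used here do not state whether the counting used it, so reads of the 2 genes may not be fully separated.

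LIX1, a gene expressed in the developing limb and hindbrain, had a TPM of 0 to 1.48 in the standard libraries, 11.6 to 17.4 in Cond 2 and 4.74 to 6.31 in Cond 3. The neuronal microtubule regulator STMN2 was at 0.538 to 1.57 TPM in the standard libraries, 3.60 to 4.86 in Cond 2 and 10.8 to 14.3 in Cond 3. These 2 genes, which the naming rule took for their lack of overlap, rose further in Cond 2 for LIX1 and further in Cond 3 for STMN2. PDYN, which encodes the opioid peptide precursor prodynorphin, and DPYSL5, a growth cone protein, rose almost equally in the 2 media. PDYN had log2 fold changes of 2.62 and 2.60, and DPYSL5 of 2.41 and 2.19, in Cond 2 and Cond 3. DPYSL5 was among the most sharply separated of the named genes, with 7.37 to 8.77 TPM in the standard pool against 35.4 to 50.1 in the altered pool (pooled log2 fold change 2.30, standard error 0.070, adjusted p = 1.99e-16 from edgeR).

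The other leading higher genes covered signalling molecules, transcription factors and less studied genes. FRZB, a secreted WNT antagonist, had a pooled log2 fold change of 3.09 and WNT10B, a WNT ligand, of 2.53. EDN3, a ligand of the endothelin receptor that acts on neural crest cells, had 2.35, and C1QTNF1, a secreted protein of the C1q family, had 2.66. HHEX, a homeobox factor of the anterior endoderm, had 2.70, with 0.660 to 1.34 TPM in the standard pool, 11.3 to 17.4 in Cond 2 and 2.85 to 3.51 in Cond 3. TMEM255A, a membrane protein, had 3.24, PNMA6F, a member of the paraneoplastic antigen family, 3.12, and MYO3B, an unconventional myosin, 2.42. Each of these passed in both media. For PNMA6F and WNT10B the standard libraries held at most 0.427 TPM, so their fold changes rest on few reads. Summed over the 6 standard libraries, PNMA6F had 11 reads, WNT10B 16, EDN3 26, TMEM255A 46 and MYO3B 61, so the last 3 were low there too. PNMA6F passed narrowly in Cond 2 (edgeR, adjusted p = 0.0430).

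**Figure D2:**
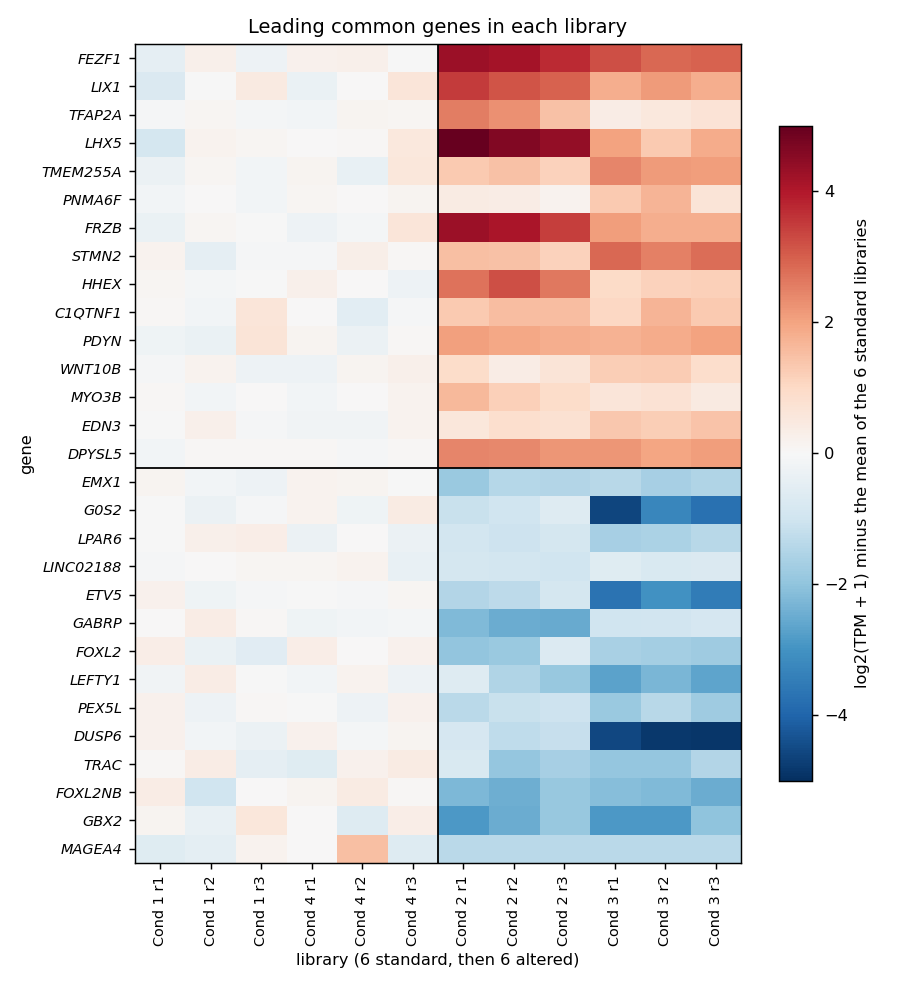
Level of the 15 leading common higher and 14 of the 15 leading common lower genes (rows) in each of the 12 libraries (columns), as log2(TPM + 1) minus the mean of the 6 standard libraries. Every altered library is on the red side for the upper 15 genes and on the blue side for the lower 14, as their choice required. FRZB and LHX5 are darker in Cond 2 while DUSP6, ETV5 and G0S2 are darker in Cond 3.

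The promoters are shown for the first 3 named common genes of each direction that have a promoter entry in the RefSeq table, because these genes moved the same way in both media, and the letters searched in them are those of common promoter elements. Each window runs from 250 bases before to 50 bases after a RefSeq start on GRCh38.p14, is written 5′ to 3′ along the gene, and has in capitals every match, on either strand, of TATAAA, the TATA box, of CCAAT, the CCAAT box, of GGGCGG, the GC box, of CCGGAA, the core bound by ETS factors such as ETV5, of TAATCC, bound by OTX factors, of ATGCAAA, part of the octamer bound by OCT4, or of CACGTG, the E-box. The windows are chr7:122304701-122305000 on the reverse strand for FEZF1, chr6:10419610-10419909 on the reverse strand for TFAP2A, chrX:120311412-120311711 on the reverse strand for TMEM255A, chrX:151912224-151912523 on the forward strand for MAGEA4, chr2:236168337-236168636 on the reverse strand for GBX2 and chr3:138946967-138947266 on the forward strand for FOXL2NB.
FEZF1: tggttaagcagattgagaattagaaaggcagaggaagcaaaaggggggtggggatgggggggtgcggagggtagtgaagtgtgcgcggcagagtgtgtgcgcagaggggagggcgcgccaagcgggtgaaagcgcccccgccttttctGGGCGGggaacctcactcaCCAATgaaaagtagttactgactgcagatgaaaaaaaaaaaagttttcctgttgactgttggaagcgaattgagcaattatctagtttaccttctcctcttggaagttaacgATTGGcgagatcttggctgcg
TFAP2A: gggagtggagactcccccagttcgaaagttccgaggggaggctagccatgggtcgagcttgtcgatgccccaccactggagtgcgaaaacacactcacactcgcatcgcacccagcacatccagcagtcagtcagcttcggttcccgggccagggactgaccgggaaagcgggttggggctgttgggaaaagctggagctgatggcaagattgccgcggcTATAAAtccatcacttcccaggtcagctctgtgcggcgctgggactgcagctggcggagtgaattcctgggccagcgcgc
TMEM255A: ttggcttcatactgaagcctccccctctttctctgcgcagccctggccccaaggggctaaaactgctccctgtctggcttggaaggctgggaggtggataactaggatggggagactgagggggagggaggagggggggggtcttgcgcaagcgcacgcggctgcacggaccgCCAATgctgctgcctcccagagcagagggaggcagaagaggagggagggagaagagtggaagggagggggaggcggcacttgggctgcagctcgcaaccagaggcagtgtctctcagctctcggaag
MAGEA4: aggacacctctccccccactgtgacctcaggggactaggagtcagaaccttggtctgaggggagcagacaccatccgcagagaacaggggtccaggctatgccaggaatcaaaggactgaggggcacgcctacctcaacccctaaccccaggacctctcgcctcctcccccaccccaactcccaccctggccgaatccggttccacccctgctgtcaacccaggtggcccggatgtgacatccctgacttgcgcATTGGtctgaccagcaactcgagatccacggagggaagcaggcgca
GBX2: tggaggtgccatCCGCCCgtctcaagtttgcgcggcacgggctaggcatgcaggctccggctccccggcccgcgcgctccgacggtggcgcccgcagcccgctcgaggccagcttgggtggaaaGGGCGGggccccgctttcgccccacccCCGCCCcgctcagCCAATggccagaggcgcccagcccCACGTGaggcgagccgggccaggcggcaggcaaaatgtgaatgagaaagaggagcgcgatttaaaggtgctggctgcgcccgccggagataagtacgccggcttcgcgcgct
FOXL2NB: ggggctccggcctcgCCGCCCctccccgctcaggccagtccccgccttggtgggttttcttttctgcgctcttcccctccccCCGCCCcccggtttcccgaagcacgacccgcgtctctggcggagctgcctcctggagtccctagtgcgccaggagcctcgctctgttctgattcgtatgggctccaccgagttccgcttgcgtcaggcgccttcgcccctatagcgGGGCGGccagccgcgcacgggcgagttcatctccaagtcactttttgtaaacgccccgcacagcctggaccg

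The TFAP2A window holds TATAAA 30 bases before the start, whereas the GBX2 and FOXL2NB windows each hold 3 matches of GGGCGG. Such windows were found in the RefSeq table for 167 of the common higher genes, 122 of the common lower genes and 11423 of the genes tested. TATAAA occurred in 14.4% of the common higher, 9.02% of the common lower and 5.72% of all of these windows. CCGGAA occurred in 10.2%, 14.8% and 27.2% of them, and GGGCGG in 59.3%, 55.7% and 68.9%. The shares were 36.5%, 32.0% and 36.2% for CCAAT, 4.19%, 5.74% and 4.27% for TAATCC, 2.40%, 4.92% and 2.89% for ATGCAAA, and 3.59%, 7.38% and 9.71% for CACGTG. The median GC content was 65.3%, 65.0% and 65.3%. A match is a run of letters and was not tested as a binding site.

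The gene lists were chosen with earlier results of these data known. Their counts, here and below, are therefore a description and no test against all genes. Genes of the anterior neural plate formed the list with the most common higher members. Of 19 members tested, 5 were common, all higher (against 1.41% of all genes), and 9 were called in the pooled test, all higher (against 2.62%). The median log2 fold change of the list was 2.03 in Cond 2 and 0.41 in Cond 3, against -0.00011 and -0.0056 over all genes tested. After FEZF1 the largest was LHX5, a LIM homeobox factor of the forebrain, with 4.27 to 13.3 TPM in the standard libraries, 207 to 334 in Cond 2 and 23.3 to 38.8 in Cond 3. OTX2, needed for the forebrain and midbrain and also expressed in primed stem cells, had 89.7 to 125 TPM in the standard libraries, 283 to 355 in Cond 2 and 181 to 214 in Cond 3. Both were above the standard range in all 6 altered libraries, and Cond 2 was above Cond 3 in both.

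HESX1, a repressor of the anterior neural ridge, differed strongly in Cond 2, with 137 to 205 TPM against 15.8 to 28.1 in the standard pool, while its 24.7 to 34.4 in Cond 3 overlapped with the standard libraries. Its log2 fold changes were 3.10 and 0.64, both with an adjusted p-value under 0.05 and the second under 2-fold. IRX3, an Iroquois factor of the neural tube, showed the reverse order, with 4.88 to 8.38 TPM in the standard pool, 14.4 to 16.3 in Cond 2 and 20.1 to 34.5 in Cond 3. The remaining 4 pooled calls of this list, SIX3, RAX, ZIC1 and DLK1, passed in Cond 2 only. For SIX3, a factor of the most anterior neural plate, the TPM was 109 to 209 in Cond 2 and 2.01 to 3.07 in Cond 3, the latter within the standard range of 0.736 to 5.18. SOX21, a SOX factor of neural progenitors named after its values were seen, was higher in both media, with 76.3 to 120 TPM in the standard pool, 326 to 391 in Cond 2 and 231 to 271 in Cond 3.

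In surface ectoderm, 3 of 17 members tested were common and higher (1.41% of all genes) and 1 was common and lower (1.17%). TFAP2A, a factor of epidermis and neural crest, had 0.0514 to 0.284 TPM in the standard libraries, 2.20 to 5.88 in Cond 2 and 0.516 to 0.894 in Cond 3. Its pools did not overlap, as the naming rule required. GATA2, another factor of non-neural ectoderm, had log2 fold changes of 1.94 and 1.70, at no more than 1.77 TPM in any library. DLX3, a factor of the epidermis, was at or under 0.272 TPM in every standard library, and 1 of the Cond 3 libraries was listed at 0. In the pooled test its log2 value was 4.46 (edgeR, adjusted p = 0.00178), and it was no longer called without Cond 3 replicate 1 (edgeR, adjusted p = 0.0711) or against Cond 4 alone, where the value was 2.18 (edgeR, adjusted p = 0.0919). GABRP, a GABA receptor subunit found in early ectoderm and amnion, moved the other way, from 4.85 to 7.89 TPM in the standard libraries to 0.180 to 0.471 in Cond 2 and 2.40 to 2.77 in Cond 3.

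Among members of the BMP pathway, 4 of 20 tested were common, all higher (against 1.41%). The ligands BMP2 and BMP4 rose in both media but in different order. BMP2 had 8.14 to 11 TPM in the standard pool, 13.0 to 16.9 in Cond 2 and 26.9 to 31.5 in Cond 3, whereas BMP4 had 3.90 to 7.11, 17.5 to 24.0 and 9.81 to 12.2. The targets ID2 and ID4, inhibitors of basic helix-loop-helix factors, had pooled log2 fold changes of 1.44 and 1.23, and no altered library overlapped with the standard pool. Not all BMP targets moved together. ID1 had log2 fold changes of 0.52 in Cond 2 and -0.20 in Cond 3, SMAD7, an inhibitory SMAD, had 0.94 and -0.92, and the antagonist NOG had 1.23 and -1.13. The median of the list was 0.69 in Cond 2 and 0.06 in Cond 3.

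Members of the NODAL pathway that were called were mostly lower. Of 18 tested, 3 were common and lower (1.17% of all genes) and 1 was common and higher (1.41%), while the medians of the list were 0.03 in Cond 2 and -0.15 in Cond 3. The ligand NODAL had 4.13 to 9.99 TPM in the standard libraries, 1.24 to 3.43 in Cond 2 and 1.00 to 1.40 in Cond 3. Its co-receptor TDGF1 had 1170 to 1350 TPM in the standard libraries, 351 to 623 in Cond 2 and 679 to 698 in Cond 3. The feedback inhibitor LEFTY1 had 5.87 to 9.63, 1.21 to 4.19 and 0.259 to 0.676 TPM. These 3 genes did not overlap between the pools, and TDGF1 was lowest in Cond 2 while LEFTY1 was lowest in Cond 3.

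FST, which binds and blocks activin, was the common higher member, with 62.7 to 81.7 TPM in the standard libraries, 168 to 198 in Cond 2 and 107 to 144 in Cond 3. LEFTY2, the neighbouring paralog of LEFTY1, was not common, with log2 fold changes of 1.02 in Cond 2 and -0.67 in Cond 3. Reads of the 2 LEFTY genes can be split between them where their sequences are alike, and the sources used here do not state how such reads were counted.

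The FGF/ERK list held more common genes than any other, 8 of 28 tested, of which 6 were lower (against 1.17%) and 2 were higher (against 1.41%). The lower members included the feedback phosphatase DUSP6, the ETS factors ETV5 and ETV4, the feedback inhibitor SPRY4 and the ligand FGF19. DUSP6 had 60.1 to 87.0 TPM in the standard libraries, 30.7 to 41.0 in Cond 2 and 1.61 to 2.20 in Cond 3. ETV5 had 27.9 to 38.6, 11.3 to 17.3 and 1.61 to 3.10 TPM. SPRY4 had 77.7 to 87.9, 39.8 to 53.7 and 13.8 to 18.6 TPM. In all 3 the Cond 2 libraries lay between the standard libraries and those of Cond 3, with no overlap.

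FGF19 had log2 fold changes of -1.57 in Cond 2 and -2.52 in Cond 3. The other common members, named after their values were seen, were FGF13, with -1.03 and -1.10, ETV4, with -0.71 and -1.87, and the ligands FGF8, with 1.17 and 1.02, and FGF4, with 1.37 and 1.50. By adjusted p-value alone, 9 of the 28 members were lower in each medium (against 5.41%) and 5 were higher in each (against 7.02%). The feedback inhibitors SPRY1 and IL17RD, named after their values were seen, were among the former, at -0.50 and -0.56 in Cond 2 and -0.94 and -0.91 in Cond 3. DUSP4, another phosphatase named in the same way, was at 0.43 in Cond 2 and -2.03 in Cond 3. SPRY2 passed by adjusted p-value in Cond 3 and not in Cond 2, and had 58.5 to 70.0 TPM in the standard libraries, 58.7 to 64.3 in Cond 2 and 24.0 to 30.2 in Cond 3. The median of the list was -0.12 in Cond 2 and -0.70 in Cond 3.

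Among the genes of primed pluripotency, 3 of 26 tested were common, with NANOG and TDGF1 lower (against 1.17% of all genes) and OTX2 higher (against 1.41%). NANOG (ENSG00000111704), which keeps stem cells undifferentiated, had 43.6 to 48.1 TPM in the standard libraries, 20.2, 24.0 and 24.6 in Cond 2, and 9.93, 10.2 and 11.3 in Cond 3. All 6 altered libraries lay below all 6 standard libraries (exact two-sided permutation test, 6 against 6, p = 0.00216, the smallest p this design allows). This test exchanges single libraries, although each pool is 2 conditions of 3 libraries, so its p describes these libraries only. The pooled log2 fold change was -1.63 (standard error 0.059, adjusted p = 1.78e-15 from edgeR). Its retrogene NANOGP8, which can share reads with it, had a pooled log2 fold change of -1.43, and the pseudogene TDGF1P3 had -1.16, close to the -1.18 of TDGF1. POU5F1, which encodes OCT4, was at 1.03 to 1.57 TPM in the standard and 0.412 to 1.41 in the altered libraries and was not called in the pooled test (log2 value -0.61, edgeR, adjusted p = 0.134). In Cond 2 it had 0.412, 0.576 and 0.789 TPM, below every standard library (log2 fold change -1.14, edgeR, adjusted p = 0.0434), and in Cond 3 it had 1.04, 1.14 and 1.41 TPM, within the standard range (log2 fold change -0.08, edgeR, adjusted p = 0.885). POU5F1 has near-identical pseudogene copies that can share its reads, so its level is uncertain.

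Most of the other regulators of this state changed by less than 2-fold. SOX2 had log2 fold changes of 0.40 in Cond 2 and 0.41 in Cond 3, and SALL4 of 0.32 and 0.37, both higher in each medium by adjusted p-value alone. DPPA4, with -0.64 and -0.44, and the RNA-binding protein L1TD1, with -0.79 and -0.49, were lower in each by the same measure. FOXD3 and the telomere protein TERF1 were lower in Cond 2, at -2.03 and -1.12, and did not pass by adjusted p-value in Cond 3, at 0.03 and 0.08. The summed TPM of the 10 markers of pluripotent stem cells was 8350 to 8760 in the standard libraries, 7970 to 8930 in Cond 2 and 9010 to 9780 in Cond 3. None of the 10 was common, against 2.59% of all genes, a share at which 10 genes can hold none.

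Several abundant long non-coding RNAs of pluripotent stem cells were lower in both media, and those given here were chosen after their values were seen. LINC00678 had 295 to 324 TPM in the standard libraries, 35.8 to 74.1 in Cond 2 and 150 to 196 in Cond 3. LNCPRESS2 had 181 to 243, 32.1 to 59.0 and 77.4 to 111 TPM, and FOXD3-AS1 had 196 to 243, 54.4 to 70.6 and 127 to 146 TPM. LNCPRESS1, which is repressed by p53 in stem cells, had 29.0 to 40.7, 15.5 to 21.5 and 5.84 to 13.3 TPM. The first 3 were lowest in Cond 2 and LNCPRESS1 was lowest in Cond 3, and no altered library of any of them overlapped with the standard libraries.

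The largest common decrease under the naming rule was in MAGEA4, a cancer-testis antigen on the X chromosome, with 0 reads in all 6 altered libraries. Its level in the standard libraries was low and uneven, at 0.600 to 6.26 TPM, and against 3 reads over the altered pool it was at least 68.0-fold lower there. Without Cond 4 replicate 2, a library left out after the data were seen, this bound was 38.4-fold. GBX2, a homeobox factor that limits OTX2 at the border of midbrain and hindbrain, had 3.68 to 9.88 TPM in the standard libraries, 0, 0.300 and 0.979 in Cond 2, and 0, 0 and 0.808 in Cond 3. The pools were fully separated, as the naming rule required. The 2 media did not differ by the test (difference in log2 fold change -0.62, adjusted p = 0.668 from edgeR). The pooled log2 fold change was -4.34 (standard error 0.484, adjusted p = 2.00e-07 from edgeR).

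The neighbouring genes FOXL2, a forkhead factor of the ovary, and FOXL2NB, its divergent neighbour on chromosome 3, had pooled log2 fold changes of -2.82 and -3.54. EMX1, a homeobox factor of the dorsal forebrain, fell by 2.48 on the log2 scale, by nearly the same amount in both media. For EMX1 the standard libraries held 3.31 to 4.87 TPM and the altered libraries 0.430 to 0.976. G0S2, an inhibitor of triglyceride breakdown, had 83.7 to 138 TPM in the standard pool, 46.8 to 65.2 in Cond 2 and 3.35 to 9.80 in Cond 3. Among the rest, PEX5L, a relative of the peroxisomal import receptor, had a pooled log2 fold change of -3.03, LPAR6, a receptor of lysophosphatidic acid, -2.53, the long non-coding RNA LINC02188 -2.57, and TRAC, the constant segment of the T cell receptor alpha chain, -3.50 at a maximum of 3.97 TPM.

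Further common genes were chosen after their values were seen. HTR7, a serotonin receptor (ENSG00000148680, chromosome 10, 90740823 to 90858039, reverse strand), had 60.7 to 75 TPM in the standard libraries, 12, 13.5 and 14 in Cond 2, and 11.8, 12.6 and 14.2 in Cond 3. The ranges of the 2 media overlapped, with log2 fold changes of -2.42 and -2.40. AK4, a mitochondrial adenylate kinase, had 18.2 to 27.2 TPM in the standard pool and 3.47 to 6.41 in the altered pool, and its pseudogene AK4P1, which can take reads from it, had a pooled log2 fold change of -1.94 against -2.17 for AK4. CTCFL, the testis paralog of the insulator protein CTCF, fell by 2.20 on the log2 scale. PKDCC, a secreted kinase, had 87.6 to 129 TPM in the standard pool, 530 to 677 in Cond 2 and 244 to 307 in Cond 3.

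**Figure D3:**
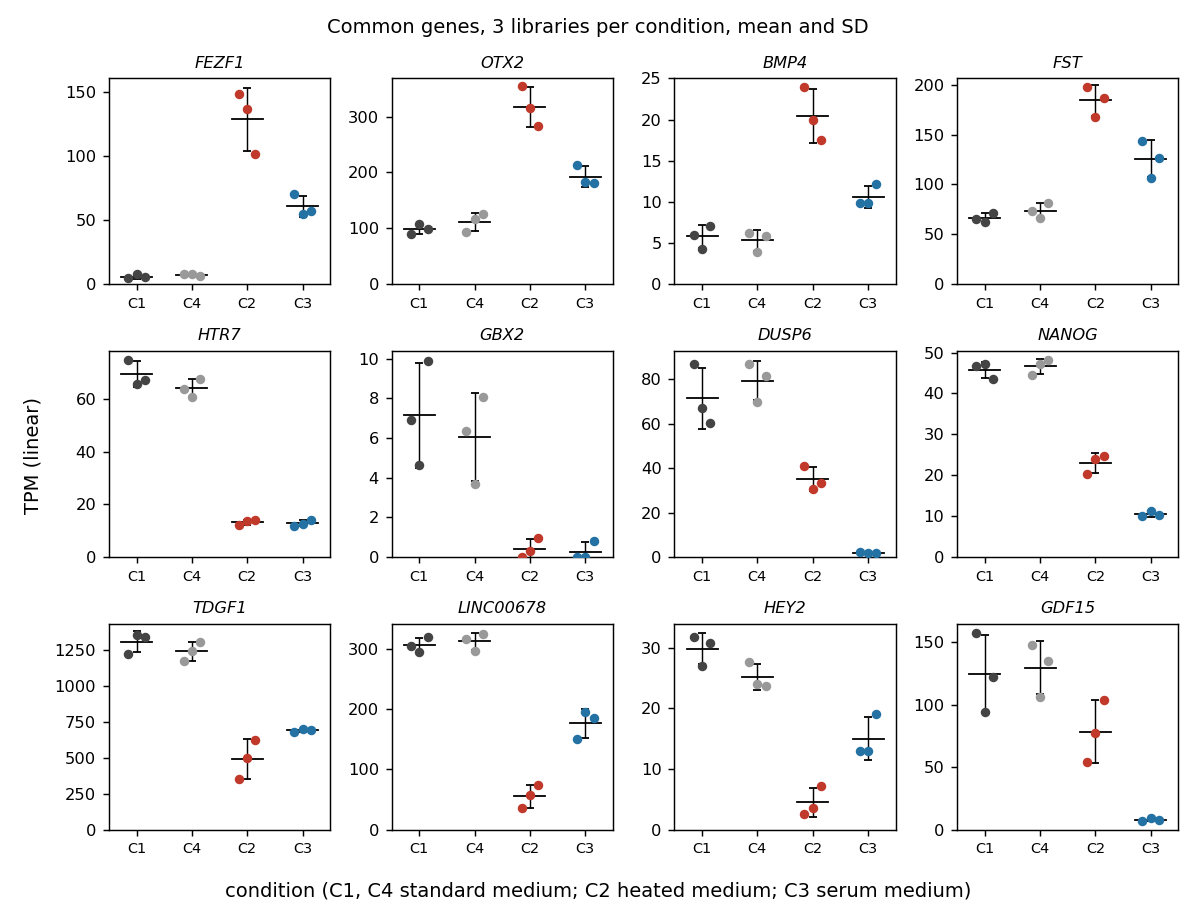
TPM (linear axis from 0) of 12 common genes in each library, with 3 points per condition, the mean as a bar and the SD as an error bar, for Cond 1 and Cond 4 in standard medium, Cond 2 in heated medium and Cond 3 in serum medium. HTR7 and GBX2 are at about the same level in both altered media, FEZF1 and BMP4 are highest in Cond 2, and DUSP6, NANOG and GDF15 are lowest in Cond 3.

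In the list of neuronal cytoskeleton and adhesion genes, 4 of 24 tested were common and higher (against 1.41%), and 1 was common and lower (against 1.17%). Besides STMN2 and MAP2 these were the Eph receptors EPHA4, with log2 fold changes of 3.00 in Cond 2 and 0.67 in Cond 3, and EPHB2, with 1.30 and 1.56. MAP2, a dendrite protein named after its values were seen, had 0.95 and 1.25. SLIT2, a guidance ligand, was the lower member, with 4.36 to 6.92 TPM in the standard libraries, 1.57 to 2.57 in Cond 2 and 2.79 to 3.17 in Cond 3. In the WNT list, FRZB and the receptor FZD5 were higher and the ligand WNT5B was lower, 3 common genes of 17 tested (against 2.59% of all genes). WNT5B was at the edge of the definition in Cond 3 (edgeR, adjusted p = 0.0497). Its Cond 3 libraries reached 2.16 TPM and overlapped with the standard libraries, which began at 1.89 TPM. FZD5 had 68.4 to 82.2 TPM in the standard pool, 250 to 302 in Cond 2 and 90.2 to 126 in Cond 3.

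In several other lists 1 member was common, against 2.59% of all genes. HEY2, a Notch target, had 23.7 to 31.8 TPM in the standard libraries, 2.65 to 7.18 in Cond 2 and 13.0 to 19.1 in Cond 3. UHRF1, which maintains DNA methylation in S phase, rose to 61.4 to 62.5 TPM in Cond 2 and 138 to 158 in Cond 3 from 38.2 to 45.3. COL2A1, a fibrillar collagen, CDKN1A, a p53 target that stops the cell cycle, MYC, a growth regulator, and CCN2, a target of YAP, were common and lower, with pooled log2 fold changes of -1.31, -1.43, -1.12 and -1.09. CDKN1A and CCN2 moved mostly in Cond 3, at -2.18 and -1.95, against -0.68 and -0.23 in Cond 2, and their altered and standard libraries overlapped. The mesendoderm list had a pair of common higher genes among 5 tested (against 1.41%), HHEX and CXCR4, a chemokine receptor. The other tested members, TBXT, MIXL1 and TBX6, were not common. Of the 13 genes listed, 6 were under 1 TPM in every library, and EVX1, FOXA2 and GATA4 were under 0.1 TPM. ALDH1A2, an enzyme of retinoic acid synthesis, was common and higher at no more than 0.690 TPM, and was not called against Cond 1 alone (edgeR, adjusted p = 0.0626).

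The response of the amino acid sensing factor ATF4 shows how the pooled and the common calls came apart. All 25 members tested were lower in the pooled test by adjusted p-value, against 18.2% of all genes (18.4% were higher, 36.6% in either direction), and 12 passed the fold threshold (against 2.43%). The list's median log2 fold change was -0.02 in Cond 2 and -1.56 in Cond 3. Of the 25, GDF15 and VLDLR were common, both lower (against 1.17% of all genes). GDF15, a stress-induced cytokine, had 94.3 to 157 TPM in the standard libraries, 54.0 to 104 in Cond 2 and 7.35 to 9.19 in Cond 3, and VLDLR, a lipoprotein receptor, had log2 fold changes of -0.79 and -1.21. CHAC1, which degrades glutathione, and the pseudokinase TRIB3, both members chosen after their values were seen, had -3.17 and -3.33 in Cond 3 and 0.02 and -0.09 in Cond 2.

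**Figure D4:**
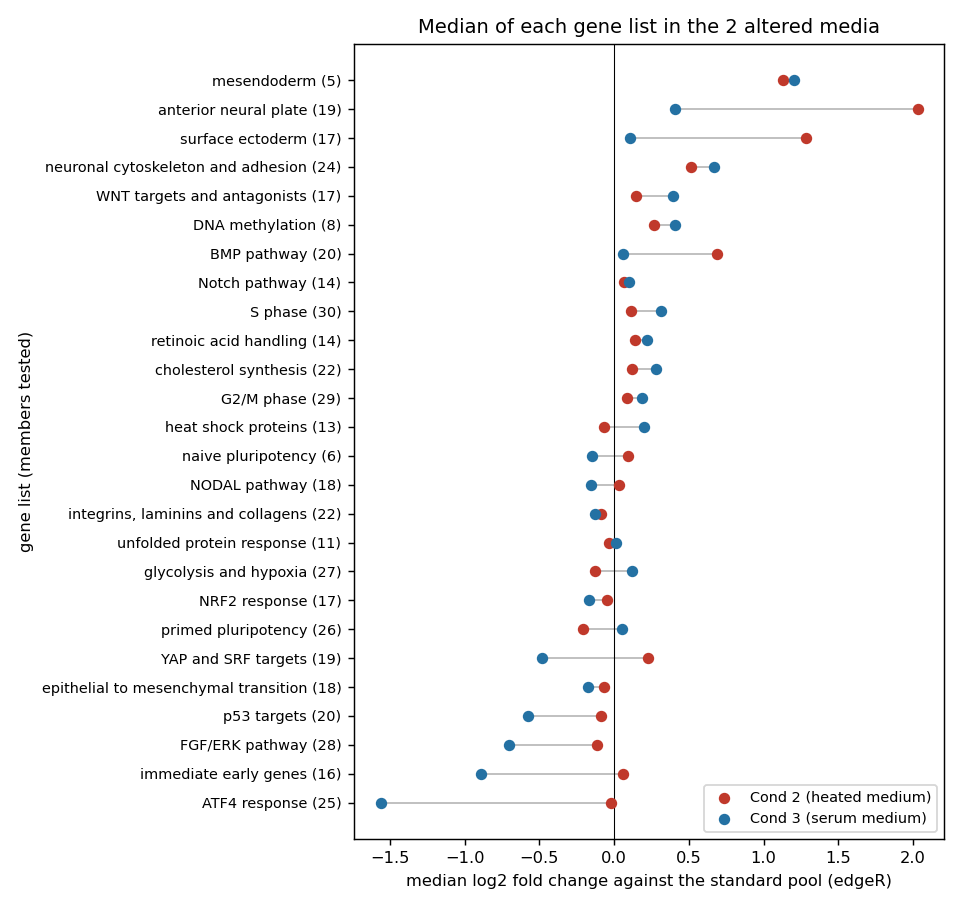
Median log2 fold change against the standard pool in Cond 2 (red) and Cond 3 (blue) for each of the 26 gene lists (rows, with the number of members tested), ordered by the pooled median. The anterior neural plate and BMP lists are further right in Cond 2, and the ATF4 response, at -0.02 in Cond 2 and -1.56 in Cond 3, is the list furthest left in Cond 3.

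In 8 of the 26 lists no member was common, against 2.59% of all genes. At that share a list of 6 to 29 tested members can hold none, so the zeros do not set these lists apart. Heat shock proteins (13 tested), the unfolded protein response (11), cholesterol synthesis (22), glycolysis and hypoxia (27), the NRF2 response (17), epithelial to mesenchymal transition (18), naive pluripotency (6) and G2/M phase (29) made up these lists. Small shifts in both media were nevertheless counted for cell cycle genes. Of the 30 S phase genes tested, 11 were higher in each medium by adjusted p-value, and of the 29 G2/M genes 9 were, against 7.02% of all genes tested (5.41% were lower in each). The pooled median was 0.19 in the S phase list and 0.16 in the G2/M list. Over all 26 lists, 465 different genes were tested, of which 25 were common and higher (against 1.41%) and 20 common and lower (against 1.17%). With lists chosen after earlier results were known, these totals are a description.

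The genes that moved in opposite directions were chosen by these contrasts, and their values are given as a description. HMX3 and HMX2, neighbouring homeobox genes of the inner ear and hypothalamus, were higher in Cond 2 and lower in Cond 3. HMX2 had 5.91 to 9.50 TPM in the standard libraries, 14.7 to 20.3 in Cond 2 and 0.347 to 1.01 in Cond 3. HMX3 had 0.538 to 2.61, 9.63 to 12.1 and 0.114 to 0.726 TPM, so that its Cond 3 libraries overlapped with the standard pool. The Nogo receptor relative RTN4RL1, the Rab GTPase RAB7B and the BMP antagonist NOG were the other named genes of this direction.

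In the reverse direction, CXCL5, a chemokine, had 18.3 to 22.6 TPM in the standard libraries, 3.81 to 4.77 in Cond 2 and 48.3 to 75.5 in Cond 3. OLIG3, a factor of the dorsal hindbrain and spinal cord, had 2.75 to 4.06, 0.773 to 1.82 and 26.1 to 34.7 TPM. POU3F4, a POU factor of the neural tube, RAMP1, a receptor partner of calcitonin-like peptides, ACSS1, a mitochondrial acetyl-CoA synthetase, and ALDH1A1, a retinaldehyde dehydrogenase, followed the same order. The pooled comparison called none of the 11 named opposed genes by both its thresholds, except for HMX2, whose pooled log2 fold change was -1.15 (edgeR, adjusted p = 0.000175).

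**Figure D5:**
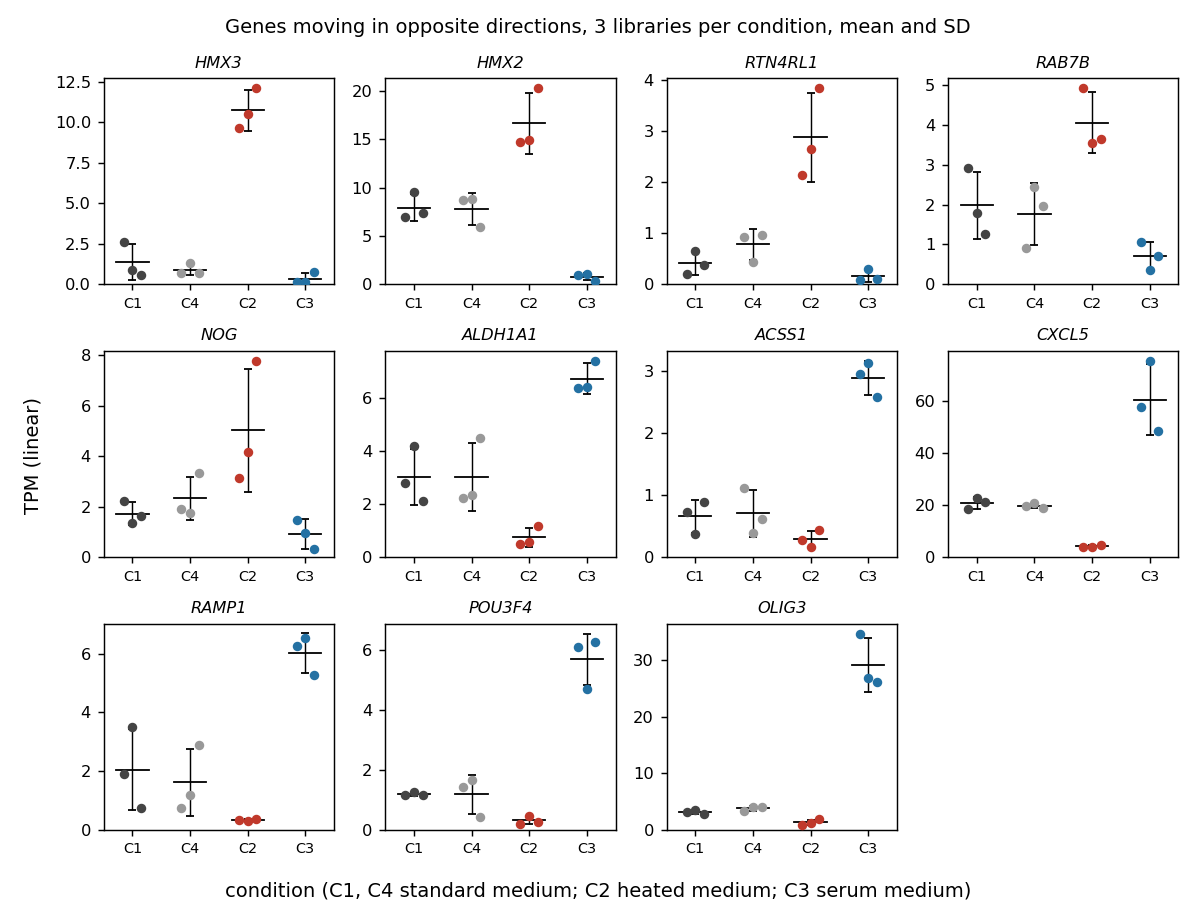
TPM (linear axis from 0) of the 11 named genes that moved in opposite directions, with 3 points per condition, the mean as a bar and the SD as an error bar. For HMX3, HMX2, RTN4RL1, RAB7B and NOG the Cond 2 mean is the highest and the Cond 3 mean the lowest, and for the other 6 genes the order is reversed.

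Markers of cell types that a differentiating culture could hold were counted in the same way, against 1.41% of all genes common and higher and 1.17% common and lower. The single blood marker tested, CD34, was not called, the summed TPM of the 6 blood markers was at most 1.85 in any library, and HBG1 and PTPRC were under 0.1 TPM in every library. For cardiomyocytes 0 of 4 tested markers were common, and the summed TPM of the list was 2.45 to 5.25 in the standard libraries, 2.86 to 4.75 in Cond 2 and 3.31 to 4.80 in Cond 3. For hepatocytes 1 of 3 was common and higher, APOB, at no more than 0.640 TPM, and the sum was 1.91 to 3.48, 1.67 to 4.69 and 7.32 to 12.4 TPM.

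For fibroblasts 1 of 6 was common and lower, THY1, which stem cells also carry, with 119 to 157 TPM in the standard libraries, 57.0 to 62.2 in Cond 2 and 48.6 to 49.2 in Cond 3. By adjusted p-value in the pooled test, 3 of the 6 were higher and 1 was lower, against 18.4% and 18.2% of all genes. The median log2 fold change of this list was -0.15 in Cond 2 and 0.67 in Cond 3. The summed TPM of the fibroblast list was 384 to 456, 265 to 314 and 587 to 624, and DCN, one of its defining markers, was under 0.1 TPM in every library. For endothelium 1 of 3 was common and lower, KDR, with 51.8 to 65.8 TPM in the standard libraries, 20.8 to 24.4 in Cond 2 and 32.3 to 43.3 in Cond 3. The other direction was more frequent in this list, with 2 of the 3 higher and 1 lower by adjusted p-value in the pooled test. Its median log2 fold change was 0.54 in Cond 2 and 0.74 in Cond 3. The sum was 77.4 to 92.6, 61.3 to 66.9 and 86.6 to 102 TPM, and EMCN was under 0.1 TPM throughout.

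For 3 further lists the sums were higher in Cond 2, and for neurons and amnion also in Cond 3, than in any standard library. Of the neural crest markers 1 of 3 was common, TFAP2A, with sums of 26.5 to 35.5 TPM in the standard libraries, 44.8 to 65.3 in Cond 2 and 33.4 to 38.3 in Cond 3, and TFAP2B was under 0.1 TPM in every library. The pooled test called 1 of these markers higher and 1 lower, against 2.62% and 2.43% of all genes. Of the neuron markers 1 of 8 was common, STMN2, with sums of 49.5 to 58.7, 61.0 to 63.5 and 76.7 to 80.5 TPM. Of the amnion and trophoblast markers 2 of 5 were common, TFAP2A and GABRP, in opposite directions, with sums of 25.5 to 32.3, 34.4 to 47.7 and 33.0 to 38.5 TPM. The part of such cells in the common genes was not tested.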

How the data were processed

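RNA-Seq of poly(A) RNA from the 12 libraries of 201B7 cells was analysed from the files of the authors. Per the submitters' processing notes, reads were demultiplexed with bcl2fastq 2.20.0.422, trimmed with cutadapt 4.1 and fastp 0.20.1, aligned to GRCh38 with HISAT2 2.1.0 and assigned to genes with featureCounts. The authors deposited whole-number read counts per gene, not normalized. The authors also deposited TPM values, which correct for gene length and depth. Whether counting used strand, and how reads with several matches were treated, is not given in the sources used here. Of 58580 data lines of counts, 5 held no whole gene row and were left out, and 2042 of the 60617 genes with TPM values had no count row.

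Counts were normalized by TMM, filtered with filterByExpr by condition (17747 genes kept) and fitted over all 12 libraries, with the 4 conditions as separate groups, with the quasi-likelihood functions of edgeR 4.0.16 under R 4.3.3. P-values were adjusted over all genes tested by Benjamini-Hochberg, and genes were called at an adjusted p under 0.05 and a fold above 2. The contrast was the mean of Cond 2 and Cond 3 minus the mean of Cond 1 and Cond 4, with each altered medium also tested against that standard mean. Since both share the 6 standard libraries, no overlap test was run. Permutation tests were exact and two-sided over 924 splits, with 0.00216 as the smallest p. Replicates of a condition differed by more than sampling noise (chi-square per gene 4.18 to 10.2).

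Named genes were the 15 largest common changes in each direction (TPM of at least 1 in the higher pool, pools not overlapping, official symbol that is no clone, pseudogene or antisense name), up to 6 opposed genes per direction, up to 4 common members per list, NANOG, POU5F1, and genes called between Cond 4 and Cond 1. One of the genes this rule names is not reported here. The members and gene lists were chosen with earlier results of these data known. Coordinates came from GENCODE 44 (99.4% of identifiers matched) and promoters from RefSeq, GRCh38.p14. Counts were simulated with 3-fold changes for the altered against the standard media over 17341 genes. Of these, 97 of 100 common and 50 of 50 opposed genes were recovered, and 0 of 17141 unchanged genes were called common. Genes changed in a single medium, of which 0 of 50 were called common, could not test the definition. Their 3-fold change, averaged over both media, lies under the pooled fold threshold. Changed genes were not drawn from the lowest levels, so recovery near the floor was not tested. Alternatives were DESeq2 1.42.0, upper-quartile factors, no filter, limma 3.58.1 on TPM, 2 groups only, a replicate block, other standards, other thresholds and leaving out each library. Depth was 16441148 to 21871503 reads on genes per library, and 3 reads was used as the floor for a pool at 0.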

Additional observations from a re-analysis of the deposited data

Results flagged for a closer look

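In 9 of the named genes 1 standard library stood apart from the other 5 by Dixon's test at the 95% level, which chance meets in about 1 of 20 groups. The highest of the 6 standard libraries stood apart for BMP2 (11 TPM, Cond 4 replicate 1), FRZB (7.71 TPM, Cond 4 replicate 3), HESX1 (28.1 TPM, Cond 4 replicate 3), MAGEA4 (6.26 TPM, Cond 4 replicate 2), HMX3 (2.61 TPM, Cond 1 replicate 1) and PDYN (1.99 TPM, Cond 1 replicate 3). The lowest stood apart for FOXL2NB (2.77 TPM, Cond 1 replicate 2), SOX21 (76.3 TPM, Cond 1 replicate 1) and TDGF1P3 (39.8 TPM, Cond 4 replicate 2).

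Besides the 11 named genes that moved in opposite directions, 41 of the 93 named genes differed by more than 2-fold between the altered media. The test was edgeR's contrast of Cond 3 minus Cond 2 at an adjusted p under 0.05. The values below are log2 fold changes of that difference. By adjusted p-value alone 38.2% of all genes tested differed, and the share that also passed 2-fold was not counted. Many named genes were chosen for large changes in these same libraries, so the 41 are a description. Among genes that were higher in the altered pool, the value was negative, with the higher level in Cond 2, for SIX3 (-5.80), LHX5 (-2.96), TFAP2A (-2.57), HESX1 (-2.46), EPHA4 (-2.33), FRZB (-2.07), HHEX (-2.00), LIX1 (-1.37), FZD5 (-1.36), ID4 (-1.24), FEZF1-AS1 (-1.17), MYO3B (-1.13), PKDCC (-1.08) and FEZF1 (-1.03). It was positive for PNMA6F (2.18), STMN2 (1.60), UHRF1 (1.31) and TMEM255A (1.22). LEFTY2 was higher in Cond 2 and lower in Cond 3 than the standard pool, with a difference of -1.69.

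Among genes that were lower in the altered pool, the level was lower in Cond 3 for DUSP6 (-4.18), GDF15 (-3.22), G0S2 (-2.98), ETV5 (-2.56), LEFTY1 (-2.48), PEX5L (-1.77), LPAR6 (-1.75), CCN2 (-1.72), CDKN1A (-1.49), SPRY4 (-1.44), SPRY2 (-1.12), NANOG (-1.07), NANOGP8 (-1.05), MYC (-1.03) and LNCPRESS1 (-1.02). The level was lower in Cond 2 for GABRP (3.17), HEY2 (1.81), LINC00678 (1.73), WNT5B (1.58), AK4P1 (1.34), FOXD3-AS1 (1.11) and LNCPRESS2 (1.10).

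Some genes of the TPM table had no count row and so entered no count test. In limma's fit on log2(TPM + 1), 5 of the 451 such genes with enough signal met the definition of a common gene. Over all 14253 genes of that fit, 182 met it, so the 5 do not set these genes apart. PDGFB, a growth factor chain, had a pooled log2 difference of -1.95 on that scale (mean TPM 27.1 in the standard and 7.59 in the altered pool), AL121885.2 of -1.35, the glycosyltransferase gene B3GALT5 of -1.28 and GSTT2B of -1.13, while PNPLA3, a lipid hydrolase, was higher by 1.04 (mean TPM 16.5 and 36.5).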

How the results depend on the processing

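DESeq2, upper-quartile factors, no filter on low counts and disjoint standards each left the counts of common genes within 1.5 times of the 251 higher and 208 lower reported, and 454 of the 459 were shared with DESeq2, 454 with upper-quartile factors and 438 without the filter. With disjoint standards, in which Cond 2 and Cond 3 were set against different standard conditions, 357 and 349 of the 459 remained. With Cond 1 alone as the standard 370 of the 459 remained (80.6%), and with Cond 4 alone 343 (74.7%). With the replicate number as a replicate block, 460 genes were common, 446 of them shared, and the counts of pooled, common and opposed genes stayed within 1.5 times of those reported. The numbers were not treated as pairs, since the correlation of deviations between same-numbered libraries ran from -0.083 to 0.098 over 18 pairs, with 0 over 0.1. The median was 0.039 for these pairs and -0.013 for the 36 pairs with other numbers, which ran from -0.148 to 0.143. Whether same-numbered libraries share a weak batch was not tested. Counts fell in limma on TPM, where only 237 of the 459 common genes passed the filter on TPM. The pooled calls were then 124 higher and 92 lower, the common calls 109 and 73 and the opposed calls 1 and 5 with log2(TPM + 1), and 169 and 130, 143 and 95, and 1 and 7 with log2(TPM + 0.1). With no fold threshold, which moved the counts furthest, they were 3267 and 3225, 1246 and 960, and 279 and 334. A fold above 2 in each medium left 165 and 123 common genes. With 2 groups only, 275 genes were called lower in the pooled test. The opposed genes higher in Cond 2, 8 in the report, were 3 against Cond 1 alone, 5 against Cond 4 alone and 3 at an adjusted p under 0.01. Leaving out each library in turn gave 217 to 273 common higher and 167 to 207 common lower genes, 453 to 517 and 410 to 465 pooled calls, and 6 to 10 and 26 to 32 opposed genes. Of 1871 values of 93 named genes under these alternatives, 1826 kept direction and side of the threshold, 20 lost it, 5 gained it and 20 changed sign, all of the last in opposed genes or genes called between the standard conditions. With 2 groups only the pooled log2 fold changes became 0.28 for ALDH1A1, 0.65 for CXCL5, 0.0652 for HMX2, 0.27 for RAB7B and 0.78 for RAMP1. Against Cond 4 alone they were 0.25 for EEF1A1P6, -0.16 for NOG and -0.21 for RTN4RL1, and against Cond 1 alone 0.27 for PCBP1 and 0.50 for TXNDC5. Leaving out single libraries, the pooled log2 fold changes of 5 opposed genes changed sign and ran from -0.214 (without Cond 3 replicate 1) to 0.247 for NOG, from -0.0698 (without Cond 4 replicate 3) to 0.312 for POU3F4, from -0.396 to 0.007 (without Cond 1 replicate 1) for RAB7B, from -0.571 to 0.001 (without Cond 4 replicate 3) for RAMP1, and from -0.103 (without Cond 3 replicate 2) to 0.483 for RTN4RL1. CCN2, common in the report, was not called with 2 groups only (edgeR, adjusted p = 0.0712). The cause of these shifts was not tested. Genes near the floor, such as MAGEA4, DLX3, TRAC and GBX2, rest on few reads, so the size of their change is less certain than that of abundant genes such as OTX2 or TDGF1.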
